A study of Mus musculus with 6 samples.

Results

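The small leucine-rich proteoglycans described here are 8 genes of the extracellular matrix: Dcn, Bgn, Aspn, Lum, Fmod, Prelp, Omd and Ogn. They were picked by gene symbol from the deposited count table, where they are 8 of 48587 genes. The rule used no measured value, but earlier results of these data were known when the genes were chosen. All 8 symbols were found in the table.

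The data are counts of RNA bound to HA-tagged ribosomes, recovered with anti-HA beads from kidneys of neonatal mice, in 3 Foxp1-deficient and 3 littermate control libraries. Foxp1 encodes a forkhead transcription factor, and the study asked about its role in the collecting tubule. Foxp1-deficient animals were Cdh16Cre;Foxp1fl/fl;RiboTag and controls were Cdh16Cre;Foxp1fl/+;RiboTag. Both groups thus carried the Cre transgene and the RiboTag allele, which adds the HA tag to ribosomes wherever Cre is active, and controls were themselves heterozygous for the floxed allele. Cdh16, whose promoter drives Cre, is a cadherin gene of kidney tubule epithelium. By their treatment label the 3 Foxp1-deficient libraries had a chronic acid load and the 3 controls vehicle, yet the protocols in the labels describe no acid load. Genotype and labelled treatment cannot be told apart in this comparison. No label says whether the libraries of a group came from different animals. The p-values therefore reflect variation from library to library, part of which may be technical. Input libraries from whole kidney were not analysed here.

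Small leucine-rich proteoglycans are secreted proteins with a core of leucine-rich repeats, and many carry chondroitin, dermatan or keratan sulphate chains. They bind collagen fibrils and set fibril diameter and spacing, and several bind growth factors of the TGF-beta family. They fall into classes by sequence: Dcn, Bgn and Aspn belong to class I, Lum, Fmod, Prelp and Omd to class II, and Ogn to class III. In kidney, decorin and biglycan are best known as products of interstitial and vascular connective tissue cells.

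Total counts ran from 9710048 to 18958196 in Foxp1-deficient libraries and from 11264609 to 18206881 in controls. Levels are given in CPM, the count of a gene relative to the library size, with library sizes scaled by TMM, a normalization that takes most genes not to differ. A count of 0 allows up to 3 counts, or 0.158 to 0.309 CPM of the library total, which covers counting error only. Libraries of equal number resembled each other across genotypes, the libraries numbered 2 had the fewest counts in each group, and values within equally numbered pairs stand beside the group means for this reason. Foxp1 itself had 34.5, 11.3 and 29.3 CPM in Foxp1-deficient libraries 1, 2 and 3, against 48.7, 30.8 and 35.9 CPM in controls 1, 2 and 3, a log2 fold change of -0.62 (SE 0.49). It was not called (adjusted p = 0.9998, edgeR quasi-likelihood test), the groups overlapped, and the value was -0.27 without Foxp1-deficient library 2 and -0.93 without Foxp1-deficient library 1, and -0.40 without control 1. Markers of the labelled cell type, kidney tubular cells, varied between libraries and between segments. Umod, the uromodulin gene of the thick ascending limb, had 0.734, 0 and 75.7 CPM in Foxp1-deficient libraries 1, 2 and 3, against 0, 0 and 69.9 CPM in controls 1, 2 and 3. Lrp2, a receptor gene of the proximal tubule, was detected in all 6 libraries at 32.4 to 176 CPM. The 9 collecting duct genes summed to 10.3 to 117 CPM in Foxp1-deficient libraries and 19.9 to 85.8 CPM in controls, highest in the libraries numbered 1, where Slc4a1, also an erythroid gene, had 114 CPM in the Foxp1-deficient library and 79.2 CPM in the control. Aqp2, the water channel gene of the collecting duct, reached at most 8.34 CPM in any library. Markers of other cell types stood far higher, at 2158 to 8935 CPM for the stromal gene Col1a1 and 2515 to 8890 CPM for the smooth muscle gene Acta2. The levels below are therefore not specific to tubular cells, and the cells of origin were not tested.

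The family was present in every library and was dominated by Dcn and Bgn. The 8 genes together took 0.138%, 0.0718% and 0.254% of all counts in Foxp1-deficient libraries 1, 2 and 3, against 0.111%, 0.0979% and 0.175% in controls 1, 2 and 3. To set genes beside each other, CPM was divided by the exon length in kilobases (kb) that the authors deposited for each gene. On this scale the mean level over the 6 libraries was 178 CPM per kb for Dcn and 138 CPM per kb for Bgn. Fmod followed with 20.2, Lum with 20.0 and Ogn with 14.7 CPM per kb. Prelp had a mean level of 1.14 CPM per kb, Omd one of 0.238 and Aspn one of 0.21.

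The order had clear steps and uncertain neighbours. Dcn exceeded Bgn in 5 of 6 libraries, with overlapping ranges. Bgn was 6.82 times as high as Fmod per kb, and Ogn 12.9 times as high as Prelp, in both cases in 6 of 6 libraries and with no overlap of ranges. Fmod, Lum and Ogn did not differ beyond their spread, since Fmod exceeded Lum in 2 of 6 libraries and Lum exceeded Ogn in 4 of 6. Prelp exceeded Omd in 6 of 6 libraries, although their ranges over all libraries overlapped. Omd exceeded Aspn in 2 of 6 libraries. Without division by length Bgn stood above Dcn, because its counted exons span 6.099 kb, against 2.084 kb for Dcn, and Aspn stood above Omd. Set among the 14311 genes with enough counts to be tested, Dcn stood at percentile 97.8 and Bgn at percentile 97.2 by mean level per kb, Prelp at percentile 20.8 and Aspn at percentile 3.1.

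**Figure D1:**
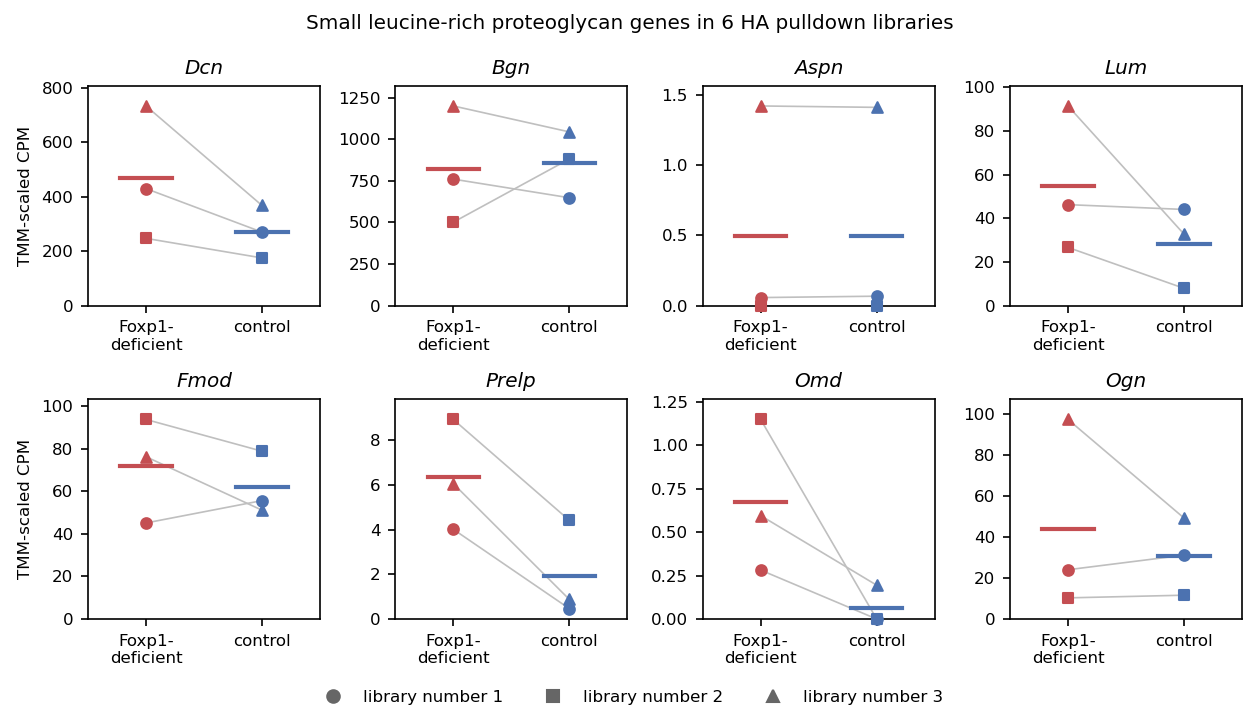
TMM-scaled CPM of each of the 8 genes in the 6 pulldown libraries, with Foxp1-deficient libraries left of controls in each panel. Points are libraries, their shapes give the library number, grey lines join libraries of equal number and horizontal bars are group means (n = 3 each). Dcn, Lum, Prelp and Omd are higher in the Foxp1-deficient library of all 3 pairs, Omd with at most 13 counts in a library, whereas the lines for Bgn, Fmod and Ogn slope both ways.

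Of the 8 genes, 7 lie in 3 clusters with other genes of the family, and Bgn lies alone on the X chromosome (73483602 to 73495933, plus strand, mm10). On chromosome 10, Dcn (97479500 to 97518162, plus strand) is followed after 47.3 kb by Lum (97565501 to 97572703, plus strand). Mean level differed along this cluster: Dcn was 8.90 times as high as Lum per kb, and Kera, the keratocan gene 34.5 kb beyond Lum, had 0 counts in all 6 libraries. On chromosome 1, Prelp (133910304 to 133921414, minus strand) lies 2.30 kb from Optc, the opticin gene, and 116 kb before Fmod (134037254 to 134048277, plus strand). Prelp and Optc had near-equal mean levels of 1.14 and 1.21 CPM per kb, while Fmod was 17.7 times as high as Prelp per kb. On chromosome 13, Aspn (49544443 to 49567557), Omd (49582766 to 49592609) and Ogn (49608071 to 49624500) follow each other on the plus strand with gaps of 15.2 and 15.5 kb. Ogn was 61.6 times as high as its neighbour Omd in mean level per kb. Omd and Aspn, in contrast, were at similar mean levels, Omd being 1.13 times as high.

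**Figure D2:**
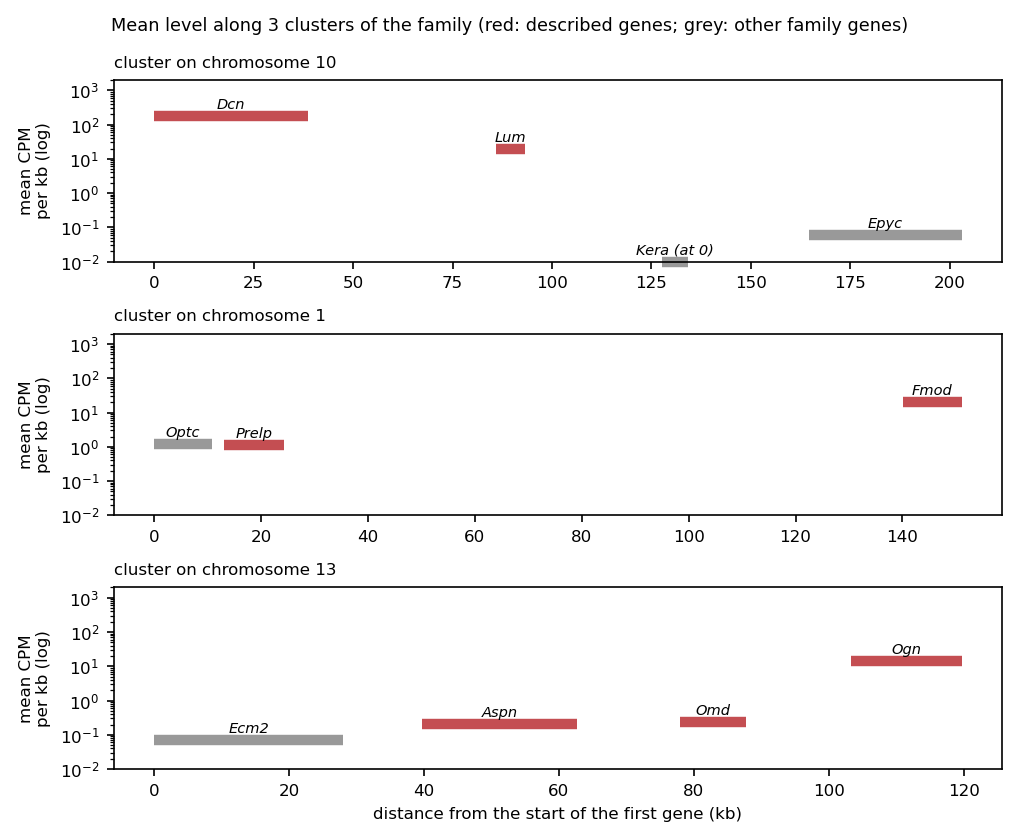
Mean CPM per kb over the 6 libraries (log axis) along the 3 clusters, against distance in kb from the start of the first gene. Each horizontal segment spans a gene, red for the 8 genes described and grey for other genes of the family, and Kera, at 0, is drawn at the foot of the axis. Ogn stands far above Omd and Aspn, and Dcn and Lum far above Epyc.

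Promoter sequences were available for 6 of the 8 genes, Prelp, Fmod, Aspn, Omd, Ogn and Bgn, from RefSeq on build GRCm38.p6. A window of 250 bases before to 50 bases after each transcription start was searched on both strands for a forkhead-type motif with the letters TGTTTAC. The same windows were searched for the TATA motif, written as TATAAA. They were also searched for the GC box, a motif common in promoters of widely expressed genes, with the letters GGGCGG. The 250 bases before the start are shown for 4 genes that differ in level: Bgn, one of the most abundant, Ogn and Omd, neighbours of very unequal level, and Prelp, which had the greatest fold change among the 6 of the 8 genes that could be tested. Capitals mark motif matches, and each sequence runs 5′ to 3′ on the gene's strand.
Bgn, chrX:73483351-73483600, plus strand: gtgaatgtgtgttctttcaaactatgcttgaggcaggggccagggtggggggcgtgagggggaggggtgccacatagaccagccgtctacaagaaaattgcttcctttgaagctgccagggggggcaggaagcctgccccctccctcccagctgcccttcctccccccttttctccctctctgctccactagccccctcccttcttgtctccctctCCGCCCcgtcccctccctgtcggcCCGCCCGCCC
Ogn, chr13:49607765-49608014, plus strand: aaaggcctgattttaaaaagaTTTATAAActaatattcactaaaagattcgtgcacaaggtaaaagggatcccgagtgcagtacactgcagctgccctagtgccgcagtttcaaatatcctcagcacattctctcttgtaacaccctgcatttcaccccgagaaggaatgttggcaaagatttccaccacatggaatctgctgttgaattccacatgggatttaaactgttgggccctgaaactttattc
Omd, chr13:49582212-49582461, plus strand: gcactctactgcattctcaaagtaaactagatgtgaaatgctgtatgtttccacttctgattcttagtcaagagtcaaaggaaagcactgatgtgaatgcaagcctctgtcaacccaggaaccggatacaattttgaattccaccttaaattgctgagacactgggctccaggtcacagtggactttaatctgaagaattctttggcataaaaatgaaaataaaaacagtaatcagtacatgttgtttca
Prelp, chr1:133921402-133921651, minus strand: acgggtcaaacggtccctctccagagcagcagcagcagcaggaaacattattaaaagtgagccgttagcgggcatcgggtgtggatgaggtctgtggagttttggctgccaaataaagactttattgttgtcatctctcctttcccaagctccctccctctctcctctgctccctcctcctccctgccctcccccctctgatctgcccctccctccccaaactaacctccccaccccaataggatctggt

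The Bgn window held 3 matches to GGGCGG, all on the minus strand and starting at positions -34, -10 and -6, of which those at -10 and -6 overlap. It was the only one of the 6 windows with a GC box, which 35.7% of 32851 mouse promoters of the same length hold. The Ogn window held TATAAA at position -227, overlapping a minus-strand match at -229, and the Aspn window held it as well, against 13.6% of all promoters. The printed Omd and Prelp sequences held none of the 3 motifs. TGTTTAC was found in 0 of the 6 windows and in 3.65% of all promoters. GC content was 63.7% for Bgn, 55.3% for Prelp, 42.3% for Ogn and 37.7% for Omd, with a median of 52.7% over all promoters. The RefSeq start of Omd lies 304 bases before the first base counted for that gene in the deposited table, so the printed sequence is not immediately upstream of the counted exons.

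Between genotypes, 5 of the 6 genes with enough counts to test were higher in Foxp1-deficient libraries and Bgn was lower, and 0 passed the test. The test was edgeR's quasi-likelihood test with Benjamini-Hochberg adjustment over 14311 genes at 0.05, which called 0 genes at all (0% of genes tested). Each of the 6 genes had an adjusted p of 0.9998, and 103 genes of the whole table (0.72%) had an unadjusted p under 0.05. DESeq2 called 6 genes and limma-voom called 0, none of them one of the 8. Aspn and Omd, with 62 and 31 counts over all 6 libraries, were too low to test. The median log2 fold change of the 6 tested genes was 0.66, against 0.03 over all genes tested. In bulk libraries such as these, fewer cells of a type and less RNA per cell cannot be told apart.

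Within pairs of equal number, Dcn, Lum and Prelp were higher in the Foxp1-deficient library of all 3 pairs. These are 3 of the 6 tested genes, against 16.5% of all genes tested. With the replicate number as a block, these same 3 genes had an unadjusted p under 0.05 in edgeR, against 3.07% of all genes tested that were higher at that p, and 0 passed adjustment. None of the 6 tested genes had groups that did not overlap, whereas 2.64% of all genes tested lay apart in the higher direction and 2.11% in the lower. DESeq2 with the replicate block called 116 genes higher (0.811% of genes tested), of which Dcn was the only one among the 8. It gave no adjusted p for Prelp (unadjusted p = 0.0044 in that fit), so Prelp could not be called by it. Aspn and Omd were not in the fit.

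**Figure D3:**
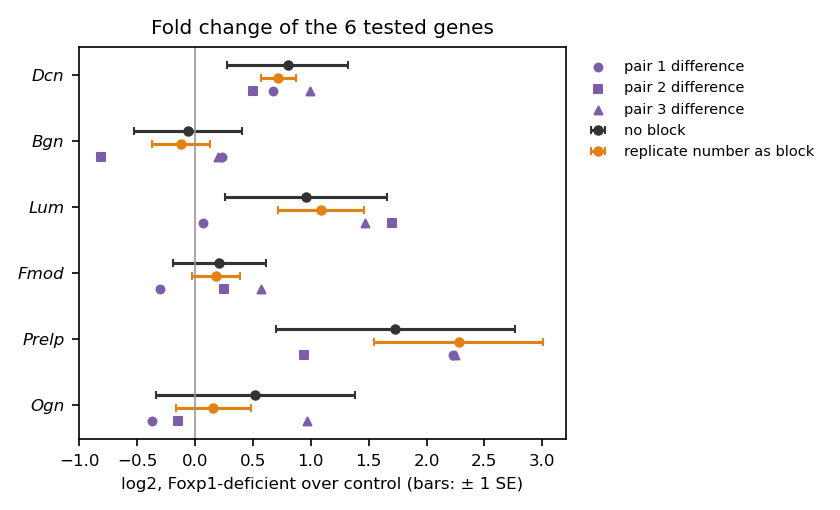
Log2 fold change of the 6 tested genes, Foxp1-deficient over control, with standard errors, from edgeR without and with the replicate number as a block, and the log2 difference within each pair. Intervals of all 6 genes are narrower with the block, and the 3 pair differences of Dcn, Lum and Prelp all lie above 0.

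Dcn encodes decorin, which carries a chondroitin or dermatan sulphate chain, binds type I collagen fibrils and sequesters TGF-beta. It had 430, 247 and 734 CPM in Foxp1-deficient libraries 1, 2 and 3, against 270, 175 and 368 CPM in controls 1, 2 and 3. Foxp1-deficient library 3 stood highest and control 2 lowest, and the groups overlapped, since Foxp1-deficient library 2 lay below controls 1 and 3. Means were 470 ± 246 CPM in Foxp1-deficient libraries and 271 ± 96.9 CPM in controls (SD, n = 3 each). The difference of 0.80 on the log2 scale (SE 0.52) did not exceed the variation between libraries (adjusted p = 0.9998, unadjusted p = 0.17, edgeR quasi-likelihood test). Within pairs the log2 difference was 0.67, 0.50 and 0.99. DESeq2 with the replicate block gave 0.73 (SE 0.17, adjusted p = 0.00242) and edgeR with the block gave 0.72 (SE 0.15, adjusted p = 0.701). Dcn was thus called by the first fit and by no other of the 22 alternative settings, although its log2 fold change was positive in all of them. Without Foxp1-deficient library 3 the log2 fold change of Dcn was 0.31.

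Bgn encodes biglycan, the closest relative of decorin, which carries glycosaminoglycan chains at its amino end and, in soluble form, is known as a ligand of innate immune receptors. It had 760, 501 and 1200 CPM in Foxp1-deficient libraries 1, 2 and 3, against 648, 881 and 1044 CPM in controls 1, 2 and 3. The Foxp1-deficient libraries held both the highest and the lowest value, and the groups overlapped. Means were 820 ± 353 CPM in Foxp1-deficient libraries and 858 ± 199 CPM in controls (SD, n = 3 each), with a log2 fold change of -0.06 (SE 0.47, adjusted p = 0.9998, edgeR quasi-likelihood test). The direction of Bgn was not settled, with pair differences of 0.23, -0.81 and 0.20. Its log2 fold change was 0.22 without both libraries numbered 2, 0.11 without control 3 and 0.15 in limma-voom with quality weights on all libraries.

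Dcn and Bgn made up different shares of the family in the 2 genotypes. The share of Dcn in the summed CPM per kb of the 8 genes was 54.7%, 47.5% and 53.6% in Foxp1-deficient libraries 1, 2 and 3, against 45.2%, 32% and 44.2% in controls 1, 2 and 3. The share of Bgn was 33%, 33% and 29.9% in Foxp1-deficient libraries 1, 2 and 3, against 37.2%, 55.2% and 42.9% in controls 1, 2 and 3. Neither share overlapped between the groups: all 3 Foxp1-deficient libraries lay above all controls for Dcn and below all controls for Bgn. The share of Omd, at most 0.296%, lay apart in the higher direction as well, on few counts. How often shares within other sets of genes lie apart was not tested. The mean share of Dcn was 51.9% ± 3.85 in Foxp1-deficient libraries and 40.5% ± 7.34 in controls, and that of Bgn 32% ± 1.76 in Foxp1-deficient libraries and 45.1% ± 9.22 in controls (SD, n = 3 each). Per Bgn count there were 0.566, 0.492 and 0.612 Dcn counts in Foxp1-deficient libraries 1, 2 and 3, against 0.416, 0.198 and 0.353 in controls 1, 2 and 3. Shares were looked at after the levels had been seen, they are parts of a whole and they move together, so they are given as a description without a test. Without control 2 the difference in the share of Dcn was 7.21 percentage points, against 11.4 with all libraries, and in the share of Bgn -8.03 against -13.1.

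**Figure D4:**
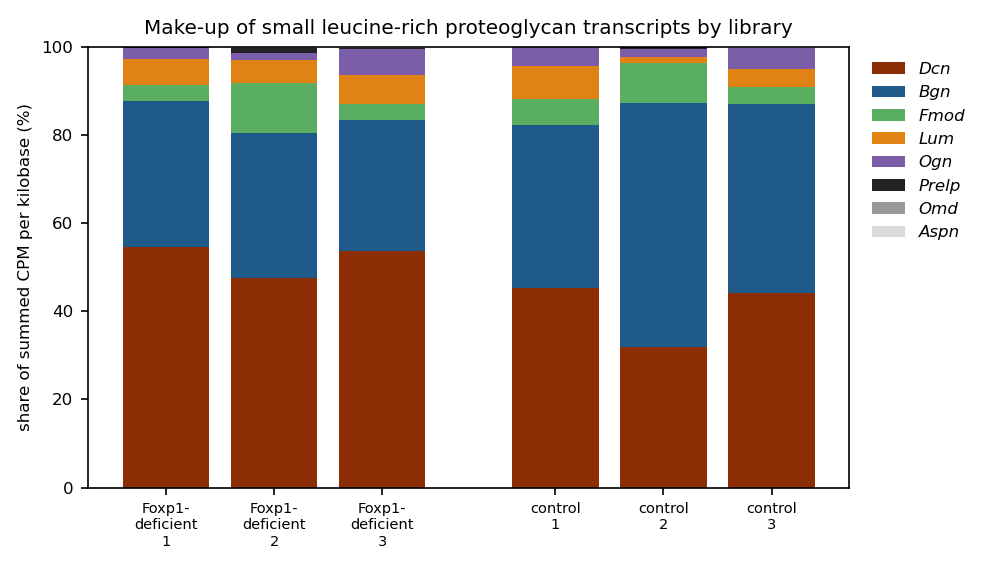
Share of each gene in the summed CPM per kb of the 8 genes, in percent, as stacked bars for the 3 Foxp1-deficient libraries and then the 3 controls. Dcn takes 47.5% to 54.7% in Foxp1-deficient libraries and 32% to 45.2% in controls, and control 2 has the greatest share of Bgn.

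Aspn encodes asporin, a class I protein without a glycosaminoglycan chain that binds collagen and TGF-beta. It had 1, 0 and 31 counts in Foxp1-deficient libraries 1, 2 and 3, against 1, 0 and 29 counts in controls 1, 2 and 3. Nearly all of its counts thus came from the libraries numbered 3, in both genotypes alike, at 1.42 CPM in Foxp1-deficient library 3 and 1.41 CPM in control 3. The summed levels of the proximal tubule and thick ascending limb genes were also highest in the libraries numbered 3, although Lrp2 and other proximal tubule genes were detected in the other libraries too. The part of library number in the level of Aspn was not tested.

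Lum encodes lumican, a keratan sulphate proteoglycan of class II that regulates collagen fibril assembly. It had 46.2, 26.6 and 91.4 CPM in Foxp1-deficient libraries 1, 2 and 3, against 44, 7.88 and 32.7 CPM in controls 1, 2 and 3. Foxp1-deficient library 3 stood apart as the highest and control 2 as the lowest, and the groups overlapped. Means were 54.7 ± 33.2 CPM in Foxp1-deficient libraries and 28.2 ± 18.5 CPM in controls (SD, n = 3 each), a log2 fold change of 0.96 (SE 0.70, adjusted p = 0.9998, unadjusted p = 0.214, edgeR quasi-likelihood test). The pairs differed among themselves, with log2 differences of 0.07, 1.70 and 1.47, so that the libraries numbered 1 were nearly equal. Without Foxp1-deficient library 3 the log2 fold change of Lum was 0.36. Relative to its neighbour Dcn, Lum had 0.107, 0.108 and 0.125 counts per Dcn count in Foxp1-deficient libraries 1, 2 and 3, against 0.163, 0.0451 and 0.0887 in controls 1, 2 and 3, and these ranges overlapped.

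Fmod encodes fibromodulin, which competes with lumican for a site on collagen fibrils. It had 45.1, 93.7 and 76.2 CPM in Foxp1-deficient libraries 1, 2 and 3, against 55.6, 78.8 and 51.1 CPM in controls 1, 2 and 3. The libraries numbered 2 were the highest of each group, unlike for Dcn, Bgn, Lum and Ogn, where Foxp1-deficient library 2 was the lowest of its group. Means were 71.7 ± 24.6 CPM in Foxp1-deficient libraries and 61.8 ± 14.9 CPM in controls (SD, n = 3 each), a log2 fold change of 0.21 (SE 0.40, adjusted p = 0.9998, edgeR quasi-likelihood test). Pair differences of -0.30, 0.25 and 0.57 went both ways.

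Prelp encodes a class II protein rich in arginine and proline near its amino end, which binds heparan sulphate and collagen and is thought to anchor basement membranes to connective tissue. It had 4.01, 8.92 and 6.05 CPM in Foxp1-deficient libraries 1, 2 and 3, against 0.465, 4.41 and 0.875 CPM in controls 1, 2 and 3. Control 2, at 4.41 CPM, was the only control above any Foxp1-deficient library, and it exceeded library 1 alone. Means were 6.33 ± 2.47 CPM in Foxp1-deficient libraries and 1.92 ± 2.17 CPM in controls (SD, n = 3 each). The log2 fold change of 1.73 (SE 1.03) was the greatest of the 6 tested genes and did not exceed the variation between libraries (adjusted p = 0.9998, unadjusted p = 0.133, edgeR quasi-likelihood test). Log2 differences within pairs were 2.23, 0.94 and 2.25, and without control 2 the log2 fold change was 3.21. These values rest on few counts, 71, 70 and 132 in Foxp1-deficient libraries 1, 2 and 3, against 7, 42 and 18 in controls 1, 2 and 3. An exon of Gm15851 on the other strand shares 350 bases with Prelp, at most 2.93 CPM were assigned to Gm15851, and the counting command names no strand option, so reads from the shared stretch cannot be told apart by strand.

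Omd encodes osteomodulin, known from mineralizing tissue, where it binds hydroxyapatite. It had 5, 9 and 13 counts in Foxp1-deficient libraries 1, 2 and 3, against 0, 0 and 4 counts in controls 1, 2 and 3. Its level was 0.282, 1.15 and 0.596 CPM in Foxp1-deficient libraries 1, 2 and 3, against 0, 0 and 0.195 CPM in controls 1, 2 and 3. The values as counted do not overlap, but the 3 counts that a 0 allows correspond to 0.315 TMM-scaled CPM in control 2, above Foxp1-deficient library 1, so a separation of the groups was not detectable at this depth. Of 7 bone markers, Alpl and Runx2 were detected in all 6 libraries, at 2.2 to 14.7 CPM and 1.37 to 6.76 CPM, and Ibsp and Dmp1 had 0 counts in all 6.

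Ogn encodes osteoglycin, also called mimecan, a class III protein of connective tissue and vessel walls. It had 24, 10.3 and 97.2 CPM in Foxp1-deficient libraries 1, 2 and 3, against 31.1, 11.6 and 49.2 CPM in controls 1, 2 and 3. The libraries numbered 3 were the highest and those numbered 2 the lowest in each group, and the groups overlapped. Means were 43.8 ± 46.7 CPM in Foxp1-deficient libraries and 30.6 ± 18.8 CPM in controls (SD, n = 3 each), a log2 fold change of 0.52 (SE 0.86, adjusted p = 0.9998, edgeR quasi-likelihood test). The direction of Ogn rested on Foxp1-deficient library 3: pair differences were -0.37, -0.15 and 0.97, and without that library the log2 fold change was -0.85.

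Each tested gene had genes outside the 8 nearer to it in pattern than any other of the 8. Dcn was nonetheless nearer to Lum and to Ogn than most genes were. Likeness of pattern was measured as the root mean square difference of centred log2 CPM over the 6 libraries, among 8914 genes with a mean of at least 10 CPM. Dcn was nearest to Agrn, the gene for the basement membrane proteoglycan agrin, at 0.13, and to Sulf1, which encodes a heparan sulphate endosulphatase, at 0.17. The nearest of the 8 genes to Dcn was Bgn at 0.54, and 15.9% of genes were nearer to Dcn than that. Lum was nearest to Matn2, a matrilin gene, at 0.17 and to Irgm1 at 0.18, with Dcn at 0.55 and 2.42% of genes nearer. Ogn was nearest to Tmtc2 at 0.25 and Rnf213 at 0.27, with Dcn at 0.63 and 3.33% of genes nearer. Bgn was nearest to Cep164 and Slx4 at 0.09 each, Fmod to Myo18a at 0.12 and Ogfrl1 at 0.13, and Prelp to Cyp2s1 at 0.42 and Hr at 0.47. Nearest among the 8 genes was Dcn for Bgn (0.54, 30.1% of genes nearer), Bgn for Fmod (0.62, 44.4%) and Fmod for Prelp (0.98, 8.47%). Distances also depend on how much a gene varies. The root mean square of centred log2 CPM was 0.42 for Bgn, 0.37 for Fmod and 0.66 for Dcn. For Lum, Ogn and Prelp it was 1.05, 1.11 and 1.19. Prelp had the least close neighbours of the 6, and its mean of 4.12 CPM lay below the 10 CPM set for neighbours.

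Of the other 10 genes of the family, 3 had enough counts to test, and 0 of them passed. Podn, the podocan gene, had 0.904, 9.43 and 12.2 CPM in Foxp1-deficient libraries 1, 2 and 3, against 0.199, 0 and 2.63 CPM in controls 1, 2 and 3. It was higher in the Foxp1-deficient library of all 3 pairs, as Dcn, Lum and Prelp were, with a log2 fold change of 2.95 (SE 1.65, adjusted p = 0.9998, edgeR quasi-likelihood test). Leaving out 1 library gave 2.38 to 5.99, the highest without control 3, so the size of the difference in Podn is uncertain. Tsku, the tsukushi gene, averaged 80.3 ± 48.1 CPM in Foxp1-deficient libraries and 63.3 ± 4.04 CPM in controls (SD, n = 3 each), and Optc 3.15 ± 1.19 CPM in Foxp1-deficient libraries and 3.09 ± 3.02 CPM in controls.

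The collagens and enzymes with which these proteoglycans act gave 0 calls in edgeR with all 6 libraries, with or without the replicate block. Among 12 tested collagen genes, those of fibrils and of molecules associated with them, 7 were higher and 5 lower (median log2 fold change 0.13). Col6a2 and Col6a1, chains of the collagen VI that decorin and biglycan bind, averaged 254 ± 33.7 and 302 ± 51.6 CPM in Foxp1-deficient libraries, against 61.6 ± 5.66 and 112 ± 22.7 CPM in controls (SD, n = 3 each). Their groups did not overlap, unlike those of Dcn, but they were named for the lowest unadjusted p of their list. They were 2 of its 12 tested genes, against 2.64% of all genes tested that lay apart in the higher direction. Col6a3, another collagen VI chain, went the other way, at 19.1 CPM in Foxp1-deficient libraries and 25.4 CPM in controls (log2 fold change -0.41). Col14a1, a fibril-associated collagen gene, averaged 31.7 ± 24.2 CPM in Foxp1-deficient libraries and 15.3 ± 11.1 CPM in controls. Of 20 collagen processing and crosslinking genes, 16 were higher and 4 lower (median 0.15), and Lox, the lysyl oxidase gene, averaged 803 ± 487 CPM in Foxp1-deficient libraries and 325 ± 155 CPM in controls. The other named genes of that list were Adamts3, a procollagen protease gene, at 1.37 ± 1.19 CPM in Foxp1-deficient libraries and 3.01 ± 0.964 CPM in controls, and Plod3, a lysyl hydroxylase gene, at 168 ± 54.5 CPM in Foxp1-deficient libraries and 136 ± 25.5 CPM in controls.

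Enzymes that build the sugar chains showed no common direction. Of 6 genes of the linker that joins chains to core proteins, 2 were higher and 4 lower, with log2 fold changes of -0.58 (SE 0.54) for B4galt7, 0.61 (SE 0.86) for B3gat3 and -0.31 (SE 0.51) for B3galt6. Of 15 chondroitin and dermatan sulphate genes, 8 were higher and 7 lower, with 0.65 (SE 0.49) for Dsel, 0.61 (SE 0.71) for Chpf and -0.30 (SE 0.44) for Chst14. Of 6 keratan sulphate genes, 5 were higher and 1 lower, and B4galt1, a galactosyltransferase gene, averaged 200 ± 26.4 CPM in Foxp1-deficient libraries and 121 ± 19.4 CPM in controls (SD, n = 3 each) without overlap. Chst1 and B4galt4 in the same list had log2 fold changes of 0.31 (SE 0.60) and 0.24 (SE 0.49).

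Among 13 growth factor and receptor genes whose products bind the family, 7 were higher and 6 lower. Bmp4 averaged 74.9 ± 29.6 CPM in Foxp1-deficient libraries and 119 ± 48.8 CPM in controls, and Tgfb3 averaged 87.1 ± 49.5 CPM in Foxp1-deficient libraries and 157 ± 58.1 CPM in controls (SD, n = 3 each). Both ligand genes were lower in the Foxp1-deficient library of all 3 pairs, while Tgfbr2, a TGF-beta receptor gene, was higher in all 3, at 71.8 ± 37.2 CPM in Foxp1-deficient libraries and 42.7 ± 18.8 CPM in controls. Of 8 protease genes, 3 were higher and 5 lower, with log2 fold changes of -1.30 (SE 1.07) for Mmp9, -0.60 (SE 0.52) for Mmp2 and 0.25 (SE 0.37) for Mmp14. Of 6 genes of large chondroitin sulphate proteoglycans and hyaluronan synthesis, 5 were higher and 1 lower (median 0.59). Vcan, the versican gene, averaged 121 ± 75 CPM in Foxp1-deficient libraries and 60.1 ± 28.7 CPM in controls, and the hyaluronan synthase genes Has1 and Has2 averaged 12.9 ± 13.3 and 2 ± 1.2 CPM in Foxp1-deficient libraries, against 0.45 ± 0.667 and 1.06 ± 0.929 CPM in controls. Each named gene of these lists had an adjusted p of 0.9998 in edgeR's quasi-likelihood test. Besides Col6a2, Col6a1 and B4galt1, groups did not overlap for Dsel and Has1, both higher, and for Adamts3, which was lower. Over all genes tested, 2.64% lay apart in the higher direction and 2.11% in the lower. Over all 89 tested genes of the 9 lists, DESeq2 with the replicate block called 8 (8.99%), against 1.19% of all genes tested, and the lists were chosen with earlier results of these data known. It called Col6a2 (adjusted p = 2.1e-25), Col6a1 (adjusted p = 4.15e-14), Lox (adjusted p = 1.75e-06), Has1 (adjusted p = 0.00135), Vcan (adjusted p = 0.00692) and B4galt1 (adjusted p = 0.0287) higher in Foxp1-deficient libraries. It called Tgfb3 (adjusted p = 0.00351) and Bmp4 (adjusted p = 0.031) lower. DESeq2 without the block called Col6a2 (adjusted p = 3.72e-06), and limma-voom with the block called Col6a2 (adjusted p = 0.0277) and Col6a1 (adjusted p = 0.0494). In edgeR with the block and without both libraries numbered 2, Col6a2 (adjusted p = 0.0266), Col6a1, Lox and Vcan (adjusted p = 0.0376 each) were called. With 1 library left out, log2 fold changes ran from 3.46 to 7.24 for Has1 and from 0.47 to 1.44 for Vcan.

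Markers of cell types that express these proteoglycans varied among the libraries as well. The summed level of 12 stromal and fibroblast genes outside the family was 11965, 4372 and 19198 CPM in Foxp1-deficient libraries 1, 2 and 3, against 12160, 7049 and 19071 CPM in controls 1, 2 and 3. The collagen genes Col1a1, Col1a2 and Col3a1 made up 87.3% to 97.6% of this sum in Foxp1-deficient libraries and 95.3% to 97.8% in controls, so it says little of the other 9 genes. Of the 10 stromal genes that could be tested, 3 were higher in all 3 pairs, as Dcn was, namely Fbln1, Thy1 and Pi16. Another 3 were lower in all 3 pairs, namely Col1a1, Tcf21 and Meis1. Over all genes tested, 16.5% were higher and 16% lower in all 3 pairs. Pi16 was low, with at most 3.19 CPM in a library. The summed level of 6 mesothelial genes was 3006, 6791 and 3219 CPM in Foxp1-deficient libraries 1, 2 and 3, against 2001, 2656 and 1767 CPM in controls 1, 2 and 3, without overlap and with 0 of the 6 genes at 0 in any library. By gene, 5 were higher and 1 lower, and 4 were higher in all 3 pairs. Only 1 of the 6 had groups that did not overlap, against 2.64% of all genes tested in the higher direction. The 8 smooth muscle and pericyte genes summed to 5112 to 9829 CPM in Foxp1-deficient libraries and 9367 to 20994 CPM in controls, lower in all 3 pairs, with at most 1 gene at 0 in a library. Acta2 and Tagln gave most of this sum, at 2515 to 8890 and 2156 to 10851 CPM over the 6 libraries. By gene, 2 were higher and 6 lower, the latter in all 3 pairs. The 8 macrophage and leukocyte genes summed to 54.1 to 466 CPM in Foxp1-deficient libraries and 292 to 960 CPM in controls, also lower in all 3 pairs. The 8 proximal tubule genes summed to 79.6 to 511.5 CPM in Foxp1-deficient libraries and 46.2 to 394 CPM in controls, higher in all 3 pairs. Their direction was mixed by gene, with 4 higher and 3 lower of the 7 that could be tested (median log2 fold change 0.03). In the libraries numbered 2 the sums were 154 CPM in the Foxp1-deficient library and 82.0 CPM in the control, of which Lrp2 alone gave 121 and 32.4 CPM. The part of these cell types in the values of Dcn, Lum, Prelp and Podn was not tested. Cartilage genes summed to 32.9 to 53.9 CPM in Foxp1-deficient libraries and 36.9 to 51.6 CPM in controls, with Matn1 at 0 in all 6 libraries. Tendon genes summed to 8.67 to 32.7 CPM in Foxp1-deficient libraries and 11.1 to 21.7 CPM in controls. Bone genes summed to 7.97 to 20.6 CPM in Foxp1-deficient libraries and 5.84 to 20.8 CPM in controls, so markers of the skeletal tissues in which Fmod, Omd and Ogn are best known were low throughout.

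**Figure D5:**
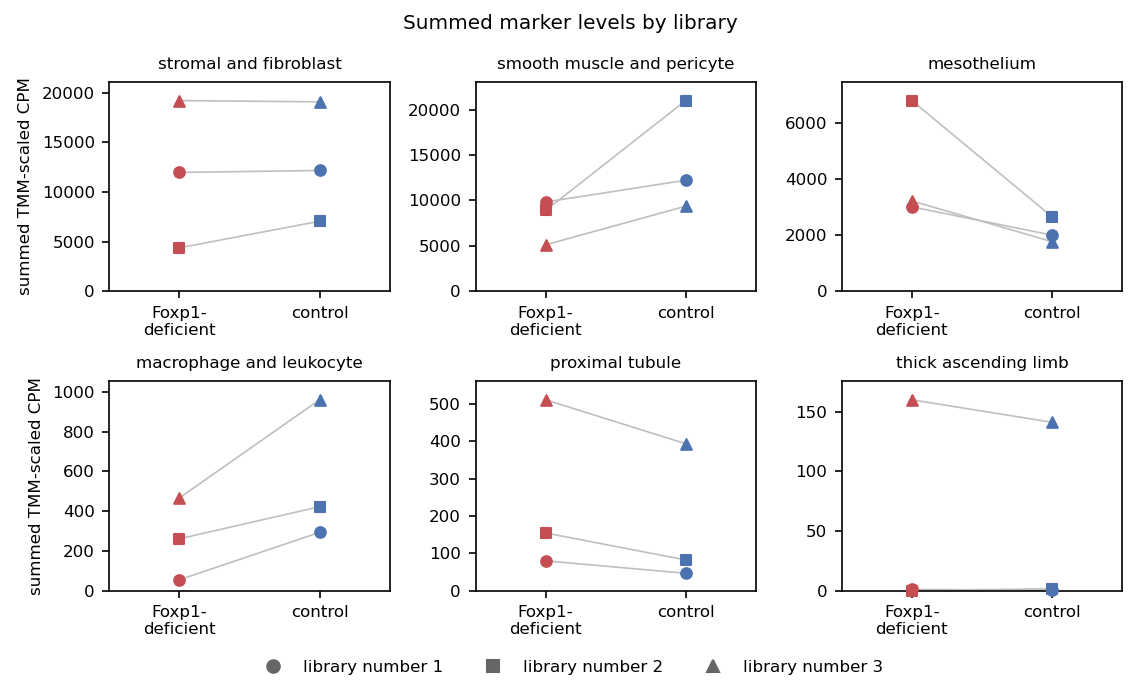
Summed TMM-scaled CPM of marker lists in each library, with Foxp1-deficient libraries left of controls, shapes for library numbers and grey lines joining equal numbers. The mesothelial sum is higher and the smooth muscle sum lower in the Foxp1-deficient library of all 3 pairs, and the stromal sum, mostly collagen, differs little except in the libraries numbered 2.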

How the data were processed

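The authors deposited raw counts of fragments per gene symbol in 6 libraries, counted over exons of paired reads by featureCounts 1.5.1 on mm10 (annotation version 86), as stated per the file headers. That command names no strand option and no option for multi-mapping reads. STAR, Trimmomatic, FastQC, DESeq2, SAMtools and deepTools are listed per the submitters' processing notes, and how they were set is not given in the sources used here. Exon lengths deposited by the authors, in bases, were used for levels per kb. All 6 count columns were matched to samples by name and 0 were left unused.

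Counts were tested with edgeR 4.0.16 in R 4.3.3 (TMM, filterByExpr, quasi-likelihood F test, Benjamini-Hochberg adjustment at 0.05) on all 48587 genes of the table, of which 14311 passed the low-count filter. Pair differences and likeness of pattern used log2 of TMM-scaled CPM plus 0.5. The procedure was tested on simulated data. DESeq2 1.42.0 and limma-voom (limma 3.58.1), other size factors, other filters, a replicate block and left-out libraries were alternatives.

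Deviations from group means of equally numbered libraries correlated across genes at r = 0.661, 0.628 and 0.681, against -0.491 to 0.0781 for unequal numbers. Equal numbers were on this basis treated as pairs, which no label states.

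The 8 genes, the 9 pathway lists, the marker lists and the tests were chosen with earlier results of these data known. The named genes are the 8 members, Foxp1, up to 3 tested genes of lowest unadjusted p from each pathway list, the 2 nearest genes of each tested member, and the first 2 markers of a list. Kera, Epyc, Matn1, Dmp1, Alpl, Runx2, Slc4a1, Col1a2, Col3a1, Fbln1, Thy1, Pi16, Tcf21 and Meis1 were named outside this rule, after values were seen, and so was Gm15851, for its overlap with Prelp. Col6a3 and Tagln were likewise named outside the rule, after values were seen. Promoters of Dcn and Lum were not used here.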

Additional observations from a re-analysis of the deposited data

How the results depend on the processing

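Counts of calls depended on the tool and the replicate block. Across all genes, 0 were called in edgeR, with or without the replicate block, 6 in DESeq2, 171 in DESeq2 with the replicate block and 8 in limma-voom with it. Leaving out both libraries numbered 2 or both numbered 3 gave 30 and 6 calls in edgeR with the replicate block. Of the 8 proteoglycan genes, 1 was called by DESeq2 with the replicate block, Dcn, and 0 in the other settings, and leaving out each library in turn gave 0 to 0 calls for all genes and for the 8. The cause of these differences was not tested. Dcn, Lum and Prelp kept their direction in all alternatives run, with log2 fold changes of 0.31 to 1.11 for Dcn, 0.36 to 1.61 for Lum and 1.27 to 3.21 for Prelp. By level not divided by length, Dcn took rank 2, Bgn rank 1, Aspn rank 7 and Omd rank 8.

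Some directions reversed. With each library left out in turn, log2 fold changes ran from -0.45 to 0.20 for Bgn, -0.02 to 0.44 for Fmod, -0.85 to 1.05 for Ogn, -0.16 to 0.73 for Tsku, -0.56 to 0.94 for Optc, -0.82 to 1.45 for B3gat3, -0.54 to 1.06 for Chpf, -0.14 to 0.55 for Chst1 and -0.38 to 0.49 for B4galt4. limma-voom with quality weights gave 0.15 for Bgn, -0.21 for Optc, -0.06 for Chpf, 0.05 for Chst14 and -0.12 for B4galt4. Without both libraries numbered 1, and then also with the replicate block, Tsku had -0.16 and -0.31, Optc had -0.13 without the block and Mmp9 had 0.02 with it. Without both numbered 2, and then also with the replicate block, values were 0.22 and 0.22 for Bgn, -0.27 and -0.22 for Optc, 0.11 and 0.11 for B4galt7, -0.06 and -0.07 for Chpf, 0.10 and 0.09 for Chst14 and -0.15 and -0.15 for B4galt4. Without both numbered 3, Ogn had -0.32, and with the replicate block it had -0.27 and Fmod -0.03. Optc had -0.05 by library totals and -0.06 in limma-voom with the replicate block. The causes were not tested. Aspn and Omd are limited by depth, with 62 and 31 counts in all.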
